A study of Mus musculus with 11 samples.

Results

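Nuclear receptors are transcription factors that bind DNA through a pair of zinc fingers, and many of them change the genes they act on when a small lipophilic molecule such as a steroid, thyroid hormone, sterol or fatty acid occupies a pocket in the protein. Others, the orphan receptors, have no established ligand or need none, and among these the Ror and COUP-TF genes are known from the developing forebrain, where they mark regions and cell classes. Co-activators and co-repressors recruited by the receptors then raise or lower transcription. The 38 genes described here were taken by name from the nuclear receptor superfamily without the retinoic acid receptors, the retinoid X receptors and Nr4a1, and each was found by its Ensembl identifier among 54752 gene identifiers. In principal sensory thalamus at birth, 37 of the 38 had at least 1 count and 25 had enough counts to be tested.

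The measurements were read counts per gene in neurons sorted from the thalamic nuclei that receive visual, somatosensory and auditory input, namely the dorsolateral geniculate nucleus (dLG, 4 libraries), the ventral posteromedial nucleus (VPM, 4 libraries) and the ventral medial geniculate nucleus (MGv, 3 libraries). The mice were newborn (postnatal day 0), of the ICR/CD-1 strain and of the genotype Gbx2CreER-IRES-EGFP/+::R26lsl-tdTomato/+, and tamoxifen had been given before birth to activate Cre. All groups therefore shared the reporter, the Gbx2 allele and tamoxifen, and differed in the nucleus that was dissected. Each library pooled tissue from 4 brains, and cells were sorted on red fluorescence, so a cell entered only if the Gbx2 driver had been active when tamoxifen was present. Gbx2 itself was unequal at birth, with mean CPM (counts scaled to a common library total by TMM) of 29.4 in dLG, 35.3 in VPM and 304 in MGv. Nothing in the labels says whether pools of a nucleus came from separate litters, so the p-values measure the spread between these pools. In bulk samples of this kind, fewer cells expressing a gene and less RNA per cell cannot be told apart.

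Library totals ran from 10175653 to 13164909 counts in MGv and from 15867673 to 23559130 in dLG and VPM, so that a count of 3 corresponded to between 0.129 and 0.292 CPM. Summed CPM of 9 pan-neuronal markers was 10588 to 15210 over the libraries and that of 6 thalamic markers 1391 to 2421, against 58.3 to 193 for 8 markers of astrocytes and radial glia, at most 20.3 for microglia, at most 5.15 for cortical neurons, at most 4.85 for GABAergic neurons and at most 4.77 for endothelial cells. Blood cell markers reached 514 CPM in 1 dLG library, where the median of the dLG libraries was 0.294, and Hba-a1 and Hbb-bs passed as higher in dLG than in MGv (adjusted p = 0.0920 and 0.0916). Oligodendrocyte lineage markers, mostly Mbp, summed to 13.1 to 30.5 CPM in dLG, 33.7 to 43.9 in VPM and 74.9 to 86.5 in MGv. The heat shock gene Hspa8 was at 3.05 CPM in dLG replicate 2, at 4.09 in VPM replicate 3 and at 5.56 in MGv replicate 1, against 159 to 581 in the other libraries. These 3 libraries are called the Hspa8-low libraries here, and the calls of receptors that change without them are given both ways. A difference is called lost below where its adjusted p is no longer under 0.1 in a refit, which says nothing of a change in its size.

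Of the 25 receptors tested, 15 differed between at least 1 pair of nuclei at an adjusted p under 0.1 (60%), where the same held for 28.3% of all 15907 genes tested. The test was edgeR's quasi-likelihood test on all libraries, with Benjamini-Hochberg adjustment over those genes. Between dLG and VPM 8 receptors passed, 4 higher in each nucleus, where 10.7% of genes passed in either direction, 4.97% towards dLG and 5.74% towards VPM. The contrast of dLG with MGv gave 9, of which 7 favoured dLG and 2 MGv, against 16.1%, 8.61% and 7.49%. That of VPM with MGv gave 8, of which 5 favoured VPM and 3 MGv, against 19%, 10.4% and 8.56%. The median log2 fold changes of the tested receptors were 0.28, 0.76 and 0.26 in these 3 contrasts (first-named nucleus minus second), and those of all genes tested were 0.005, 0.02 and 0.02. The libraries of the nuclei did not overlap for 9, 16 and 10 receptors, where this held for 14.6%, 23.8% and 25.1% of genes. The filter on low counts admits a gene that reaches its minimum in a single nucleus, so the sparse receptors among the 25 can include some that were tested because they were higher in a single nucleus.

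Rora, Nr1d1 and Pparg were higher in dLG than in both other nuclei, a pattern held by 2.04% of genes tested. Nr2f1 was higher in VPM than in both others (2.41% of genes), Rorb and Nr2f2 were lower in dLG than in both others (2.18%), and Nr2f1, Esrra, Esr2 and Nr0b1 were lower in MGv than in both others (5.22%). A total of 4 receptors were enriched in 1 nucleus, against 8.12% of genes. With edgeR, 0 receptors were enriched in MGv (3.66% of genes), with 1 at an unadjusted p under 0.05 and 1 with DESeq2, and 0 were depleted in VPM (1.97% of genes), also at an unadjusted p under 0.05 and with DESeq2. The 25 differences that passed came from 15 genes, and 14 of the 25 also passed in each of 18 refits with another model, scaling, filter, block, covariate, depth or set of libraries. Those 14 lay in Rora, Rorb, Nr2f1, Nr2f2, Nr1d1, Esrra, Nr3c1 and Esr2.

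**Figure D1:**
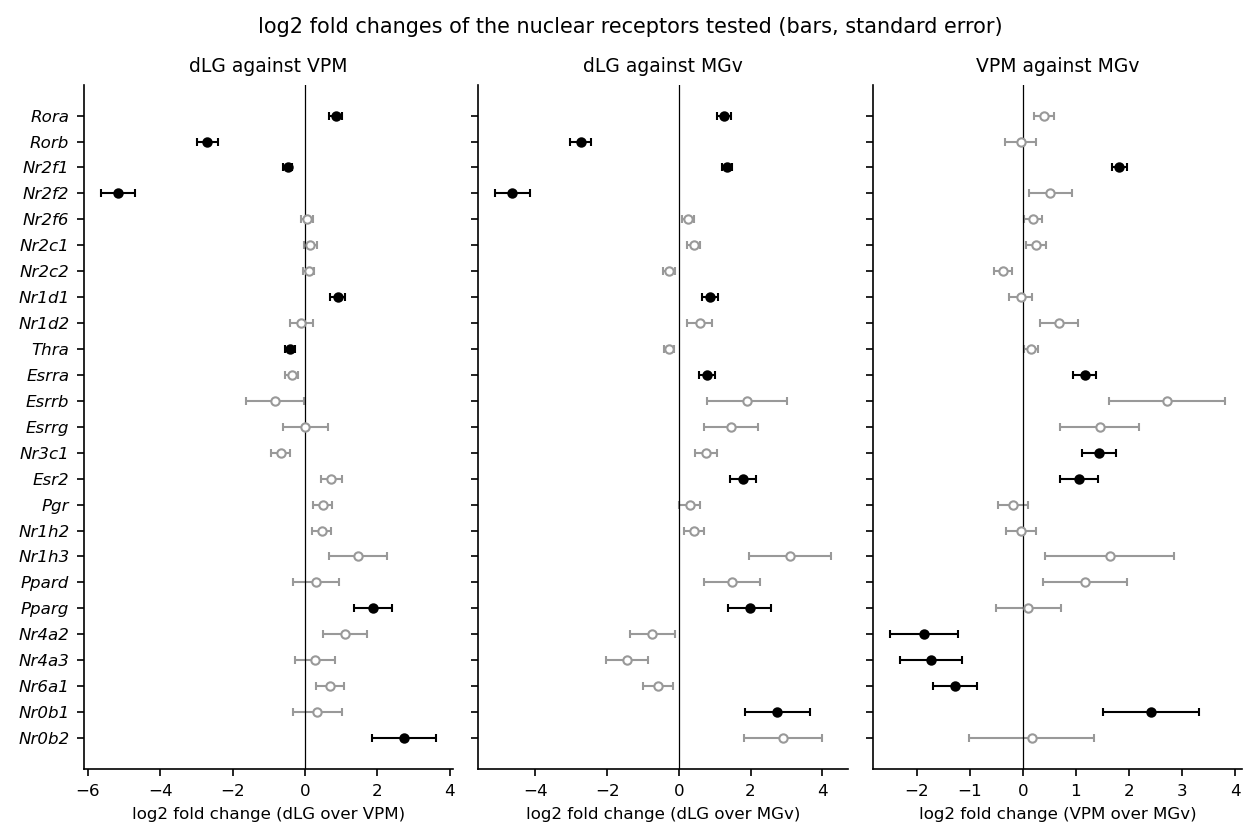
Log2 fold change of the 25 tested receptors in each pair of nuclei (first nucleus minus second), with the standard error as bars; filled points passed at an adjusted p under 0.1. Nr2f2 and Rorb lie farthest to the left in both panels that involve dLG, at -5.16 and -2.69 against VPM.

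Between genes, levels were compared in TPM, counts divided by exon length and then scaled to the same total in each library. Rora was the most abundant receptor at a mean of 188 TPM over all libraries (84 to 371), followed by Thra at 118, Nr2f1 at 113, Nr2f6 at 28.1, Rorb at 24.6, Nr1h2 at 13.7 and Nr1d1 at 13.5 TPM. Rora, Thra and Nr2f1 together held 67.1% to 82.3% of the summed TPM of the 38 genes in each library. Nr2f2 came after Nr2c1 at a mean of 6.31 TPM, but its libraries ran from 0.07 to 13.3 TPM, so its place in the order depended on the nucleus. In dLG Rora lay above Thra and Nr2f1 in every library, whereas in VPM the ranges of the TPM of Rora (83.8 to 178), Nr2f1 (141 to 171) and Thra (86.4 to 150.03) overlapped. In MGv Nr2f1 (44.8 to 50.7 TPM) lay below both Rora (108 to 130.4) and Thra (103 to 137), which overlapped each other.

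**Figure D2:**
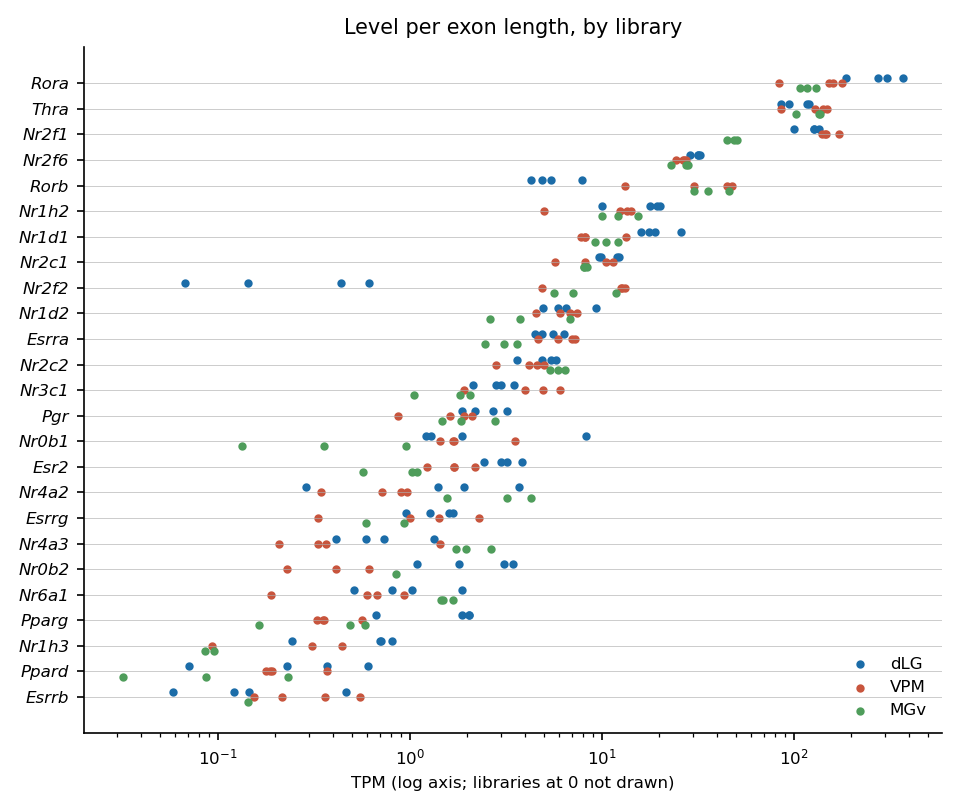
TPM of the 25 tested receptors in each library on a log axis, 1 row of points per gene with libraries coloured by nucleus. Rora, Thra and Nr2f1 lie farthest to the right, and Rorb and Nr2f2 have their dLG libraries far to the left of the others.

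Rora and Rorb encode the retinoic acid receptor related orphan receptors alpha and beta, monomeric activators that bind the same kind of DNA element. Rora (chr9:68653786-69388246, plus strand, GRCm38) is known for its role in cerebellar Purkinje cells and in thalamic neurons, and Rorb (chr19:18930605-19111196, minus strand) for layer 4 of sensory cortex and for the retina. Rora and Rorb moved in opposite directions between dLG and the other nuclei. The 250 bases before their transcription starts are shown because these paralogs with opposite patterns have starts of a like kind, rich in the dinucleotide CG. They are RefSeq promoter windows of GRCm38.p6 at chr9:68653536-68653785 (plus strand) and chr19:19111197-19111446 (minus strand), written 5′ to 3′ with each CG in capitals.
Rora: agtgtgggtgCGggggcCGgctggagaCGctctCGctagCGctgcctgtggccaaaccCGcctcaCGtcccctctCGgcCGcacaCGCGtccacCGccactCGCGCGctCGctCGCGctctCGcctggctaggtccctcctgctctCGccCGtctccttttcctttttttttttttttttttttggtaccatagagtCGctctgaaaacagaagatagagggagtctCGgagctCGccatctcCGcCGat
Rorb: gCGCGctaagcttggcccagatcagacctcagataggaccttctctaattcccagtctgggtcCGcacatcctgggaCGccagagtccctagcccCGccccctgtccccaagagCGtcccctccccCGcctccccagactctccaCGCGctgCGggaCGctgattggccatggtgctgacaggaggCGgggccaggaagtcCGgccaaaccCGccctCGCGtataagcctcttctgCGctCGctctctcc
The Rora window holds 26 CG and this Rorb window 18, against a median of 6 over the 32851 windows in the table. A second Rorb start, inside the gene, has 4 CG in its window.

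Rora measured 1367, 849, 1334 and 1581 CPM in the dLG libraries. In VPM it measured 828, 738, 560 and 712 CPM, and in MGv 590, 555 and 471 CPM. Each dLG library thus lay above each VPM and MGv library, although dLG replicate 2, an Hspa8-low library, came close to the highest VPM library. The log2 fold change was 0.85 ± 0.18 (SE) for dLG against VPM, a 1.81-fold difference (adjusted p = 0.00931), and 1.25 ± 0.20 for dLG against MGv, a 2.38-fold difference (adjusted p = 0.000877). VPM and MGv overlapped, with a log2 fold change of 0.40 ± 0.19 (adjusted p = 0.204). That last comparison passed without the 3 Hspa8-low libraries (log2 fold change 0.55, adjusted p = 0.0203), and also without dLG replicate 2 alone (0.0874) or VPM replicate 3 alone (0.0935).

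Rorb measured 20.7, 30.5, 17.7 and 17.6 CPM in dLG. It measured 176, 194, 75.0 and 115 CPM in VPM and 117, 144 and 172 CPM in MGv. The lowest VPM library, an Hspa8-low library, was still above every dLG library, and the VPM values enclosed those of MGv. Rorb was 6.47-fold lower in dLG than in VPM (log2 fold change -2.69 ± 0.28, adjusted p = 5.26e-05) and 6.66-fold lower than in MGv (-2.73 ± 0.30, adjusted p = 4.28e-05). Between VPM and MGv its log2 fold change was -0.04 with a 95% interval from -0.66 to 0.57 (adjusted p = 0.947). Expressed per exon length, Rorb reached 0.0131 to 0.0423 of the Rora level in dLG, 0.158 to 0.311 in VPM and 0.233 to 0.429 in MGv.

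Nr2f1 and Nr2f2 encode COUP-TFI and COUP-TFII, orphan receptors that act mostly as repressors and are known from patterning of the cortex and, for Nr2f2, also from veins and subsets of interneurons. Nr2f1 (chr13:78188973-78199757, minus strand) was high in every library and graded between nuclei, whereas Nr2f2 (chr7:70351944-70366735, minus strand) was close to absent in dLG. The promoter window of Nr2f2 is shown because this gene had the largest difference of the 25 and its window differs in composition from that of Rora and Rorb. It lies at chr7:70366747-70366996 (minus strand), with each CG in capitals.
Nr2f2: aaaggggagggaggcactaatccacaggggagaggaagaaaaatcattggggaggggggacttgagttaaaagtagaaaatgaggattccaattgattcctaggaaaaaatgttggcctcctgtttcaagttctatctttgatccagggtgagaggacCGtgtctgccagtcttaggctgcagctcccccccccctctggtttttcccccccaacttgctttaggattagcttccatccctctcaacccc
This window holds 1 CG, and 7.9% of all windows hold fewer. The window of the outermost RefSeq start of Nr2f1 has 22 CG and lies inside an annotated exon, so its sequence is not printed.

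Nr2f1 measured 222, 226, 192 and 226 CPM in dLG. In VPM it measured 268, 273, 367 and 298 CPM, and in MGv 86.6, 82.9 and 86.5 CPM. The nuclei did not overlap, with VPM highest, dLG next and MGv lowest. Between VPM and MGv the difference was 3.53-fold (log2 fold change 1.82 ± 0.14, adjusted p = 2.85e-06) and between dLG and MGv 2.54-fold (1.34 ± 0.14, adjusted p = 3.02e-05). Between dLG and VPM it was 1.39-fold in favour of VPM (log2 fold change -0.48 ± 0.12, adjusted p = 0.031). An antisense gene, A830082K12Rik, covers 2.42% of the Nr2f1 exon bases. It was also lower in MGv, with a log2 fold change of 1.47 ± 0.21 for dLG against MGv (adjusted p = 0.0004). For VPM against MGv it was 1.18 ± 0.21 (adjusted p = 0.00215). The part of its reads in the Nr2f1 values was not tested.

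Nr2f2 measured 0.426, 1.85, 0.218 and 1.24 CPM in dLG, from 4 counts upwards. In VPM it measured 38.5, 42.1, 21.6 and 37.8 CPM, and in MGv 21.3, 17.6 and 34.4 CPM. Every dLG library was far below every other library, and VPM and MGv overlapped. The difference between dLG and VPM was 35.9-fold (log2 fold change -5.16 ± 0.47, adjusted p = 1.72e-05) and that between dLG and MGv 25.0-fold (-4.64 ± 0.48, adjusted p = 3.02e-05). VPM against MGv gave 0.52 ± 0.41 with a 95% interval from -0.36 to 1.40 (adjusted p = 0.455). Because Nr2f2 is also known from endothelium and interneurons, their markers stand beside it here. The 5 endothelial markers summed to 0.272 to 0.913 CPM in dLG, 1.86 to 4.77 in VPM and 0.292 to 2.02 in MGv, with Cdh5 at 0 counts throughout, and Kdr (mean 2.10 CPM) and Flt1 (1.06 CPM) higher in VPM than in dLG. The 5 GABAergic markers summed to 0.382 to 1.95 CPM in dLG, 0.713 to 4.85 in VPM and 2.03 to 3.60 in MGv. The part of such cells in the Nr2f2 values was not tested. The non-coding gene B130024G19Rik, on the opposite strand, overlaps 7.46% of the Nr2f2 exon bases. It was also lower in dLG, with a log2 fold change of -3.66 ± 0.82 against VPM (adjusted p = 0.0143) and of -3.88 ± 0.87 against MGv (adjusted p = 0.00896). How the counting treated strand was not stated, so reads in the shared bases cannot be told apart.

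**Figure D3:**
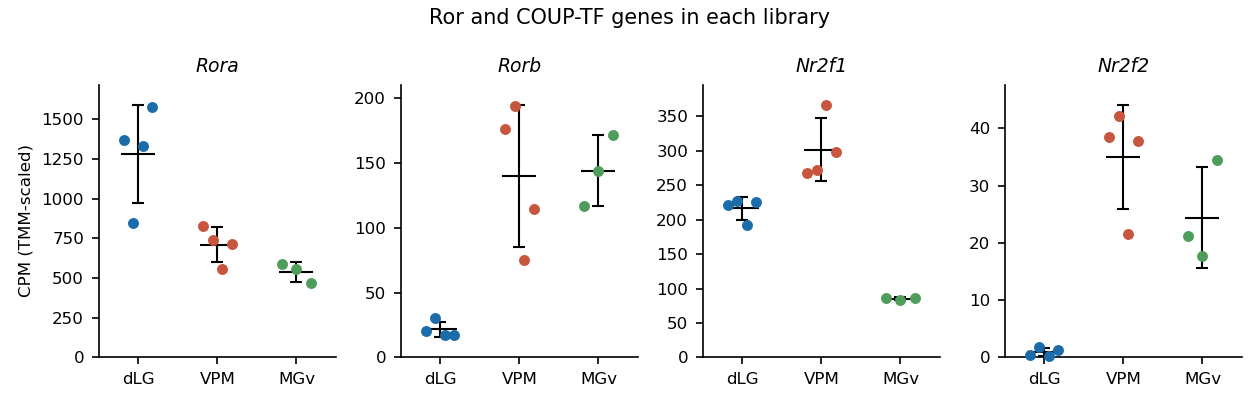
CPM of Rora, Rorb, Nr2f1 and Nr2f2 in each library (points) by nucleus, with the mean and standard deviation as bars and each panel on its own linear axis. Rora is highest and Rorb and Nr2f2 lowest in dLG, and Nr2f1 is lowest in MGv at 82.9 to 86.6 CPM.

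Within each library the paralogs can be set against each other without any scaling between libraries. The Nr2f2 level per length was 0.000671 to 0.00482 of the Nr2f1 level in dLG, 0.0348 to 0.0913 in VPM and 0.126 to 0.235 in MGv, so the ranges of the nuclei did not overlap. The Rorb to Rora ratio separated dLG from both others, while its VPM and MGv ranges overlapped. In exact two-sided permutation tests of the log2 ratios, both ratios gave p = 0.0286 between dLG and VPM (4 against 4 libraries) and p = 0.0571 between dLG and MGv (4 against 3), each the smallest p these group sizes allow. Between VPM and MGv the exact p was 0.0571 for Nr2f2 to Nr2f1, again the smallest possible, and 0.286 for Rorb to Rora. Adjusted over these 6 tests, the values were 0.0686 for 5 of them and 0.286 for the last. Rora, Rorb and Nr2f2 each already separated dLG from the other nuclei. The ratio tests that involve dLG therefore add no independent support to those differences. Between VPM and MGv, Nr2f1 alone already separated the nuclei and Nr2f2 did not pass. The test of Nr2f2 to Nr2f1 in that pair therefore adds no independent support either.

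**Figure D4:**
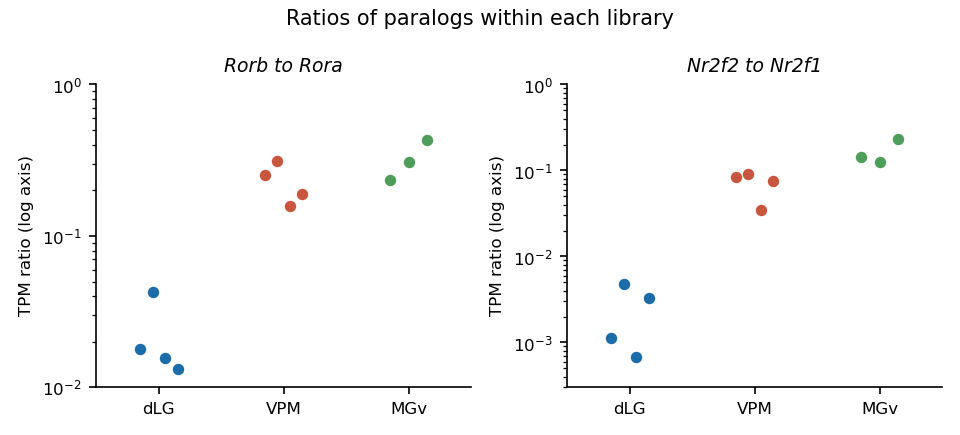
Ratio of TPM within each library, Rorb to Rora and Nr2f2 to Nr2f1, by nucleus on log axes, with 1 point per library. The dLG points lie lowest in both panels, and in the Nr2f2 to Nr2f1 panel the VPM points lie between those of dLG and MGv.

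The other members of the Nr2 group that were tested did not pass in any pair of nuclei. Nr2f6, a further COUP-TF relative, ran from 25.0 to 41.2 CPM, and Ocel1 on the opposite strand shares 54.4% of its exon bases. Ocel1 itself was lower in dLG than in MGv (log2 fold change -0.73 ± 0.18, adjusted p = 0.0149) and did not pass in the other pairs. The part of Ocel1 reads in the Nr2f6 values was not tested. The testicular receptors Nr2c1 and Nr2c2, which repress genes with direct repeat elements, ran from 12.8 to 19.1 and from 20.3 to 32.5 CPM. The 95% intervals of the log2 fold change of dLG against VPM were -0.28 to 0.40 for Nr2f6, -0.22 to 0.52 for Nr2c1 and -0.22 to 0.43 for Nr2c2. A 2-fold difference lies outside all 3 intervals. Contrasts with MGv were less flat. All dLG libraries lay above MGv for Nr2f6 (-0.12 to 0.62, adjusted p = 0.413) and Nr2c1 (0.004 to 0.815, adjusted p = 0.203). All MGv libraries lay above VPM for Nr2c2 (VPM against MGv -0.72 to -0.02, adjusted p = 0.154). Mrps25 on the opposite strand shares 30.7% of the Nr2c2 exon bases.

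Nr1d1 and Nr1d2 encode Rev-erb alpha and beta, heme-binding repressors that compete with Ror proteins for their DNA element and close a loop of the circadian clock by repressing Arntl. Nr1d1 measured 19.97, 17.2, 20.3 and 26.0 CPM in dLG. It measured 8.90, 9.26, 12.3 and 14.1 CPM in VPM and 12.9, 11.8 and 9.53 CPM in MGv. All dLG libraries lay above the others, with a log2 fold change of 0.91 ± 0.20 against VPM (adjusted p = 0.0143) and 0.87 ± 0.23 against MGv (adjusted p = 0.0216). Nr1d1 and Thra lie tail to tail on opposite strands and share 263 exon bases, which is 8.55% of Nr1d1 and 5.7% of Thra. Nr1d2 ran from 4.76 to 20.5 CPM, with its highest value in each nucleus in the Hspa8-low library, and did not pass. Without these 3 libraries it passed as lower in MGv, against dLG (log2 fold change 0.82, adjusted p = 0.0646) and against VPM (0.85, adjusted p = 0.0594), and against VPM it also passed without MGv replicate 1 alone (adjusted p = 0.0738).

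Among 14 further genes of the circadian clock, 3 were higher in dLG and 1 in VPM (28.6% of the list, against 10.7% of all genes), 2 were higher in dLG and 1 in MGv (21.4% against 16.1%), and 1 passed in each direction between VPM and MGv (14.3% against 19%). Arntl, the activator that Rev-erb proteins repress, was named after its values were seen, and its mean was 79.4 CPM in dLG, 44.7 in VPM and 49.2 in MGv. Its level in dLG exceeded that in VPM (log2 fold change 0.83 ± 0.17, adjusted p = 0.00755) and that in MGv (0.69 ± 0.18, adjusted p = 0.0247). Nr1d1 had the same direction, and a link between Arntl and Nr1d1 was not tested. Hlf, a PAR bZIP factor, averaged 26.2 CPM in dLG, 12.2 in VPM and 2.62 in MGv, and was higher in dLG than in MGv by 3.29 ± 0.41 on the log2 scale (adjusted p = 0.000135) and in VPM than in MGv by 2.19 ± 0.40 (adjusted p = 0.00261). Its relative Dbp was lowest in VPM, at 4.15 CPM against 9.31 in dLG (adjusted p = 0.0415) and 9.44 in MGv (adjusted p = 0.0367). The repressor Bhlhe40 was lower in dLG (5.52 CPM) than in MGv (23.0 CPM, adjusted p = 0.015) and VPM (15.1 CPM, adjusted p = 0.0865). The differences of these 3 genes between dLG and VPM were each lost when any of several single libraries was left out, while the log2 fold change stayed at 0.92 to 1.09 for Hlf, 0.88 to 1.13 for Dbp and -1.55 to -1.21 for Bhlhe40. Without dLG replicate 4 the adjusted p was 0.179 for Hlf, 0.153 for Dbp and 0.216 for Bhlhe40. Without VPM replicate 1 it was 0.147, 0.121 and 0.118, and without VPM replicate 2 it was 0.135, 0.113 and 0.122. Bhlhe40 against VPM was also lost without dLG replicates 1 (0.206) or 3 (0.200), VPM replicates 3 (0.129) or 4 (0.156) or MGv replicate 2 (0.107), and Dbp of VPM against MGv without MGv replicate 1 (0.180) and without the 3 Hspa8-low libraries (0.174). An opposite-strand gene, Sphk2, shares 18% of the Dbp exon bases.

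Thra and Thrb encode the receptors of thyroid hormone, which repress their targets without hormone and activate them with it. Thra measured 149, 195, 148 and 177 CPM in dLG, 232, 219, 204 and 237 CPM in VPM, and 219, 172 and 210 CPM in MGv. The dLG and VPM values did not overlap, and MGv overlapped both. The log2 fold change of dLG against VPM was -0.42 ± 0.13 (adjusted p = 0.0682), a difference of 1.33-fold. It did not pass without dLG replicates 1, 3 or 4 or without VPM replicates 1, 2 or 4, where the adjusted p ran from 0.113 to 0.186. The Thra difference was also lost without the count filter (0.121) and with a replicate block (0.115). Thrb was not tested, with 1 to 20 counts per library and at most 1.09 CPM.

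Of 12 genes that transport, convert or respond to thyroid hormone, 8 were tested. Hr, a co-repressor induced by the hormone, passed as higher in dLG than in VPM, Hr and Slc7a8 as higher in dLG than in MGv, Dio3 as higher in MGv than in either other nucleus, and Klf9 as higher in VPM than in MGv. Hr, Dio3 and Klf9, with means under 5 CPM, were named after their values were seen. Dio3, the deiodinase that inactivates the hormone, averaged 0.202 CPM in dLG, 0.0340 in VPM and 4.72 in MGv, and the log2 fold change of dLG against MGv was -4.50 ± 0.64 (adjusted p = 0.000384). Slc7a8, an amino acid transporter that also carries thyroid hormone, was lowest in MGv by its means, with 48.5 CPM in dLG, 32.9 in VPM and 20.4 in MGv, and passed between dLG and MGv (1.25 ± 0.26, adjusted p = 0.00611). Between VPM and MGv Slc7a8 had an adjusted p of 0.102, which was 0.0154 without MGv replicate 1, 0.0956 without dLG replicate 3 and 0.0822 without VPM replicate 2. Hr in dLG against VPM (adjusted p = 0.0493) was lost without dLG replicates 1 (0.143), 3 (0.1002) or 4 (0.120) and without VPM replicate 4 (0.118).

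The estrogen-related receptors are orphan receptors that drive mitochondrial and oxidative genes together with the co-activator Ppargc1a (PGC-1 alpha). Esrra measured 9.56, 7.52, 7.35 and 8.02 CPM in dLG, 10.9, 11.7, 10.4 and 8.89 CPM in VPM, and 4.73, 3.95 and 5.35 CPM in MGv. Every MGv library lay below the others, and dLG and VPM overlapped. Esrra was 2.24-fold higher in VPM than in MGv (log2 fold change 1.16 ± 0.22, adjusted p = 0.00325) and 1.73-fold higher in dLG than in MGv (0.79 ± 0.22, adjusted p = 0.0288). The latter was lost without MGv replicate 2 (adjusted p = 0.110) and without the count filter (0.120). Esrrb (0 to 1.14 CPM) and Esrrg (0 to 5.28 CPM) were tested and did not pass. Esrrb in VPM against MGv passed without MGv replicate 1, where both remaining MGv libraries were at 0 counts. With all libraries kept, it also passed with DESeq2 (0.0767), without the count filter (0.0976) and with the Hspa8-low covariate (0.0301). Without the count filter, Esrrg passed as lower in MGv than in dLG (0.0595) and VPM (0.0540).

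Ppargc1a was among 23 coregulators of nuclear receptors, all tested, of which 3 were higher in dLG and 1 in VPM (17.4% of the list, against 10.7% of all genes), 1 was higher in dLG than in MGv (4.35% against 16.1%), and 1 was higher in VPM and 5 in MGv (26.1% against 19%). The share was thus below that of all genes between dLG and MGv. Ppargc1a averaged 7.10 ± 1.45 CPM (SD, n = 4) in dLG, 31.4 ± 6.43 (n = 4) in VPM and 7.34 ± 1.13 (n = 3) in MGv. It was higher in VPM by 2.14 ± 0.21 on the log2 scale against dLG (adjusted p = 2.74e-05) and by 2.10 ± 0.23 against MGv (adjusted p = 5.48e-05). The co-repressor Nrip1 had the opposite pattern, at 16.8 CPM in dLG, 7.43 in VPM and 18.9 in MGv, with adjusted p = 0.0238 for dLG against VPM and 0.0113 for VPM against MGv. Tbl1x, part of the NCoR co-repressor complex, was at 49.2, 31.7 and 62.4 CPM in the same order (adjusted p = 0.032 and 0.00254). The Tbl1x difference between dLG and VPM was lost without dLG replicate 4 (0.106) or VPM replicate 2 (0.104), and that between dLG and MGv passed without MGv replicate 2 (0.0708). The other coregulators that passed were Hr in dLG and Ep300, Lcor and Ncoa3 in MGv, named after their values were seen. Ep300 was lost without MGv replicates 2 (0.106) or 3 (0.194) or VPM replicate 1 (0.108), and Ncoa3 without MGv replicate 3 (0.152).

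The steroid receptors are activated by hormones that reach the brain from the blood or are made in it. Nr3c1, the glucocorticoid receptor, measured 7.43, 9.37, 6.10 and 7.49 CPM in dLG, 10.9, 14.0, 7.57 and 16.03 CPM in VPM, and 4.88, 5.79 and 2.72 CPM in MGv. The MGv libraries were below all others, and VPM replicate 3, an Hspa8-low library, lay within the range of dLG. Nr3c1 was 2.71-fold higher in VPM than in MGv (log2 fold change 1.44 ± 0.32, adjusted p = 0.00875). Against dLG the VPM level passed without VPM replicate 3 (log2 fold change of dLG against VPM -0.84, adjusted p = 0.0587) and without the 3 Hspa8-low libraries (-0.96, adjusted p = 0.0471), but not with all libraries (-0.67, adjusted p = 0.177). The difference between dLG and MGv did not pass in the main test (adjusted p = 0.146) but passed without VPM replicate 3 (0.0838). With all libraries kept, it passed with a replicate block (0.0975) and after counts were thinned to the smallest library total (0.0726).

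Esr2, the estrogen receptor beta, measured 3.47, 2.88, 4.03 and 4.20 CPM in dLG, 2.04, 2.12, 2.11 and 2.52 CPM in VPM, and 1.28, 0.702 and 1.17 CPM in MGv. The nuclei did not overlap. Esr2 was 3.45-fold higher in dLG than in MGv (log2 fold change 1.79 ± 0.36, adjusted p = 0.00421), and VPM against MGv gave 1.06 ± 0.35 (adjusted p = 0.0645). The comparison of VPM and MGv was lost without VPM replicates 2 (0.112) or 4 (0.123) and without MGv replicates 2 (0.180) or 3 (0.103). With all libraries kept, it was also lost without the count filter (0.235), with a replicate block (0.116) and after thinning to the smallest library total (0.122). The comparison of dLG and VPM did not pass (0.73 ± 0.30, adjusted p = 0.179). Pgr, the progesterone receptor, ran from 3.78 to 9.44 CPM and did not pass. Esr1 and the mineralocorticoid receptor Nr3c2 were too low to be tested, with at most 11 and 7 counts in a library.

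Of 13 genes listed for steroid handling and glucocorticoid response, 10 were tested, and 4 passed between dLG and VPM (40%, against 10.7% of all genes), 2 between dLG and MGv (20% against 16.1%) and 3 between VPM and MGv (30% against 19%). Sgk1, a kinase induced by glucocorticoids, averaged 266 CPM in dLG, 524 in VPM and 57.4 in MGv. Its log2 fold change was -0.98 ± 0.16 for dLG against VPM (adjusted p = 0.00185) and 3.19 ± 0.20 for VPM against MGv (adjusted p = 4.73e-07). The means of Nr3c1 had the same order of nuclei, although Nr3c1 did not pass between dLG and either other nucleus in the main test. A link between Sgk1 and Nr3c1 was not tested. Hsd11b2, which inactivates glucocorticoids, was highest in VPM at 46.8 CPM against 26.3 in dLG (adjusted p = 0.0569) and 25.4 in MGv (adjusted p = 0.0462). Against dLG it was lost without dLG replicates 3 (0.150) or 4 (0.158) or VPM replicate 2 (0.159), and against MGv without MGv replicate 1 (0.141) or VPM replicate 2 (0.110). Srd5a1, which reduces progesterone and testosterone, was highest in dLG at 50.0 CPM, against 30.5 in VPM (adjusted p = 0.00693) and 29.4 in MGv (adjusted p = 0.00516). The glucocorticoid target Tsc22d3, named after its values were seen, was the remaining gene of the list that passed, higher in VPM than in dLG (adjusted p = 0.0454) and MGv (adjusted p = 0.00913). The difference of Tsc22d3 from dLG was lost without dLG replicates 3 (0.109) or 4 (0.113) or VPM replicate 2 (0.125).

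The liver X receptors and the peroxisome proliferator-activated receptors pair with retinoid X receptors and respond to oxysterols and fatty acids. Pparg measured 2.07, 0.687, 2.07 and 1.96 CPM in dLG, 0.371, 0.389, 0.496 and 0.571 CPM in VPM, and 0.601, 0.176 and 0.486 CPM in MGv. The dLG libraries lay above the others, dLG replicate 2 by little. The log2 fold change was 1.88 ± 0.52 against VPM (adjusted p = 0.0418) and 1.98 ± 0.60 against MGv (adjusted p = 0.0488). Both were lost without dLG replicates 1 (0.116 and 0.111) or 4 (0.108 and 0.102). The first was also lost without VPM replicates 1 (0.131) or 2 (0.124), and the second without MGv replicates 2 (0.155) or 3 (0.103). Without the count filter the second was lost as well (0.1003). Nr1h2 ran from 8.62 to 25.1 CPM, with the lowest value of each nucleus in the Hspa8-low library, and did not pass, nor did Nr1h3 (0 to 0.763 CPM) or Ppard (0.0878 to 1.48 CPM). Nr1h3 in dLG against MGv, at an adjusted p of 0.104, passed without dLG replicate 2 (0.0787), without VPM replicate 3 (0.0525) and without the 3 Hspa8-low libraries (0.0855).

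Among 15 genes regulated by sterol or fatty acid receptors, 14 were tested, and 2 passed between dLG and VPM (14.3%, against 10.7% of all genes), 3 between dLG and MGv (21.4% against 16.1%) and 5 between VPM and MGv (35.7% against 19%). Of those that passed and had a mean of at least 5 CPM in a nucleus, Cpt1a, Mylip and Plin2 had the largest log2 fold changes. Cpt1a, which admits fatty acids to mitochondria, averaged 4.00 CPM in dLG, 27.6 in VPM and 0.305 in MGv. Its log2 fold change was -2.80 ± 0.47 for dLG against VPM (adjusted p = 0.00226) and 3.74 ± 0.74 for dLG against MGv (adjusted p = 0.00421). Mylip, a ligase that removes the LDL receptor, was lowest in VPM at 4.06 CPM, against 10.2 in dLG (adjusted p = 0.0368) and 16.5 in MGv (adjusted p = 0.00332), the former lost without dLG replicate 4 (0.112) or VPM replicates 1 (0.106) or 2 (0.113). Plin2, a coat protein of lipid droplets, was lowest in MGv at 17.9 CPM, against 36.4 in dLG (adjusted p = 0.00208) and 31.6 in VPM (adjusted p = 0.009). Srebf1 in dLG against MGv and Angptl4 and Scd2 in VPM against MGv, named after their values were seen, also passed, at adjusted p of 0.0303, 0.0814 and 0.0736. Each was lost without MGv replicate 3 (0.123, 0.219 and 0.215). Angptl4 and Scd2 were lost without MGv replicate 1 (0.211 and 0.180) and VPM replicate 1 (0.124 and 0.143) as well, Angptl4 also without VPM replicate 3 (0.168) and without the 3 Hspa8-low libraries (0.331), and Scd2 without VPM replicates 2 (0.176) or 4 (0.122). Scd2 in dLG against VPM passed without VPM replicate 3 (0.0102).

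Nr4a2 and Nr4a3 encode Nurr1 and Nor1, orphan receptors whose genes are induced within minutes to hours of neuronal activity. Nr4a2 measured 1.95, 5.28, 0.436 and 2.53 CPM in dLG, 1.39, 0.519, 1.86 and 0.999 CPM in VPM, and 6.01, 4.74 and 2.14 CPM in MGv. Nr4a3 measured 1.22, 2.79, 1.63 and 0.811 CPM in dLG, 3.06, 0.736, 1.12 and 0.428 CPM in VPM, and 4.06, 5.79 and 3.50 CPM in MGv. The MGv libraries lay above the VPM libraries for both genes, and above the dLG libraries for Nr4a3 but not for Nr4a2. VPM against MGv gave -1.86 ± 0.65 for Nr4a2 (adjusted p = 0.075) and -1.73 ± 0.59 for Nr4a3 (adjusted p = 0.0702).

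Without the 3 Hspa8-low libraries both differences had nearly the same size but were lost as calls, with a log2 fold change of -1.84 for Nr4a2 (adjusted p = 0.111) and of -1.74 for Nr4a3 (adjusted p = 0.134). Leaving out single libraries lost Nr4a2 for MGv replicate 1 (0.225) or 2 (0.149) and VPM replicate 1 (0.123), 2 (0.168) or 4 (0.132), and Nr4a3 for MGv replicate 1 (0.124), 2 (0.185) or 3 (0.110) and VPM replicate 2 (0.161), 3 (0.109) or 4 (0.129). With a replicate block, both were lost as well (0.189 for Nr4a2 and 0.104 for Nr4a3). Nr4a3 in dLG against MGv, at an adjusted p of 0.139, passed without dLG replicate 2 (0.0711), without VPM replicate 1 (0.0758) and without the 3 Hspa8-low libraries (0.0989). With all libraries kept, it passed with DESeq2 (0.0760), without the count filter (0.0530) and after thinning to the smallest library total (0.0744). Genes listed for the response to tissue dissociation were, as a sum, also higher in MGv than in VPM. The 9 listed genes summed to 387 to 560 CPM in dLG, 214 to 291 in VPM and 497 to 619 in MGv. Of these, 5 (Egr1, Fos, Fosb, Jun and Junb) were higher in MGv than in VPM (55.6%, against 19% of all genes). Egr1, Fos, Fosb and Junb were also higher in dLG than in VPM (44.4% against 10.7%). Neither Nr4a gene passed between dLG and VPM (adjusted p = 0.332 for Nr4a2 and 0.853 for Nr4a3). Fos averaged 210 CPM in dLG, 77.8 in VPM and 282 in MGv. The part of dissociation in the Nr4a differences was not tested.

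Nr6a1, the germ cell nuclear factor, is a repressor known from early embryos and germ cells. It measured 3.84, 3.05, 2.07 and 6.59 CPM in dLG, 2.32, 2.68, 1.05 and 3.47 CPM in VPM, and 5.48, 5.88 and 6.12 CPM in MGv. The MGv libraries lay above all VPM libraries and within the range of dLG. VPM against MGv gave -1.28 ± 0.42 (adjusted p = 0.0602). The adjusted p was 0.131 without the 3 Hspa8-low libraries, 0.116, 0.121 and 0.147 without MGv replicates 1, 2 and 3, and 0.121 and 0.102 without VPM replicates 1 and 2.

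Nr0b1 (DAX1) and Nr0b2 (SHP) lack the DNA-binding domain of the family and act by binding other receptors. Nr0b1 measured 1.16, 5.20, 0.872 and 0.716 CPM in dLG, 0.927, 1.13, 3.29 and 1.05 CPM in VPM, and 0.225, 0.0878 and 0.583 CPM in MGv. The highest dLG and VPM values came from the Hspa8-low libraries, and the MGv values lay below all others. The log2 fold change was 2.75 ± 0.91 for dLG against MGv (adjusted p = 0.0679) and 2.41 ± 0.91 for VPM against MGv (adjusted p = 0.0999), with adjusted p of 0.268 and 0.213 without the 3 Hspa8-low libraries. Dropping dLG replicate 2 alone took the first to 1.62 (adjusted p = 0.214), and it was also lost without MGv replicates 1 (0.181) or 2 (0.190). The second was lost without dLG replicate 1 and without each VPM or MGv replicate in turn, with adjusted p from 0.103 to 0.242. Thinning to the smallest library total also lost both (0.104 and 0.123), and DESeq2 size factors lost the second (0.1006).

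Nr0b2 measured 1.34, 0.430, 0.763 and 1.15 CPM in dLG, 0.0927, 0.173, 0 and 0.238 CPM in VPM, and 0, 0.351 and 0 CPM in MGv. Every dLG library was above every other library, at a depth where a count of 3 is at most 0.292 CPM. The log2 fold change was 2.75 ± 0.88 against VPM (adjusted p = 0.0811), and dLG against MGv did not pass (adjusted p = 0.107). The former was lost without VPM replicates 1 (0.199), 2 (0.160) or 3 (0.106) and with a replicate block (0.112). The latter passed without dLG replicate 2 (0.0881), VPM replicate 3 (0.0673) or MGv replicate 2 (0.0337), the last of which leaves both MGv libraries at 0 counts. With all libraries kept, dLG against MGv passed with DESeq2 (0.0629), without the count filter (0.0888) and with the Hspa8-low covariate (0.0584).

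**Figure D5:**
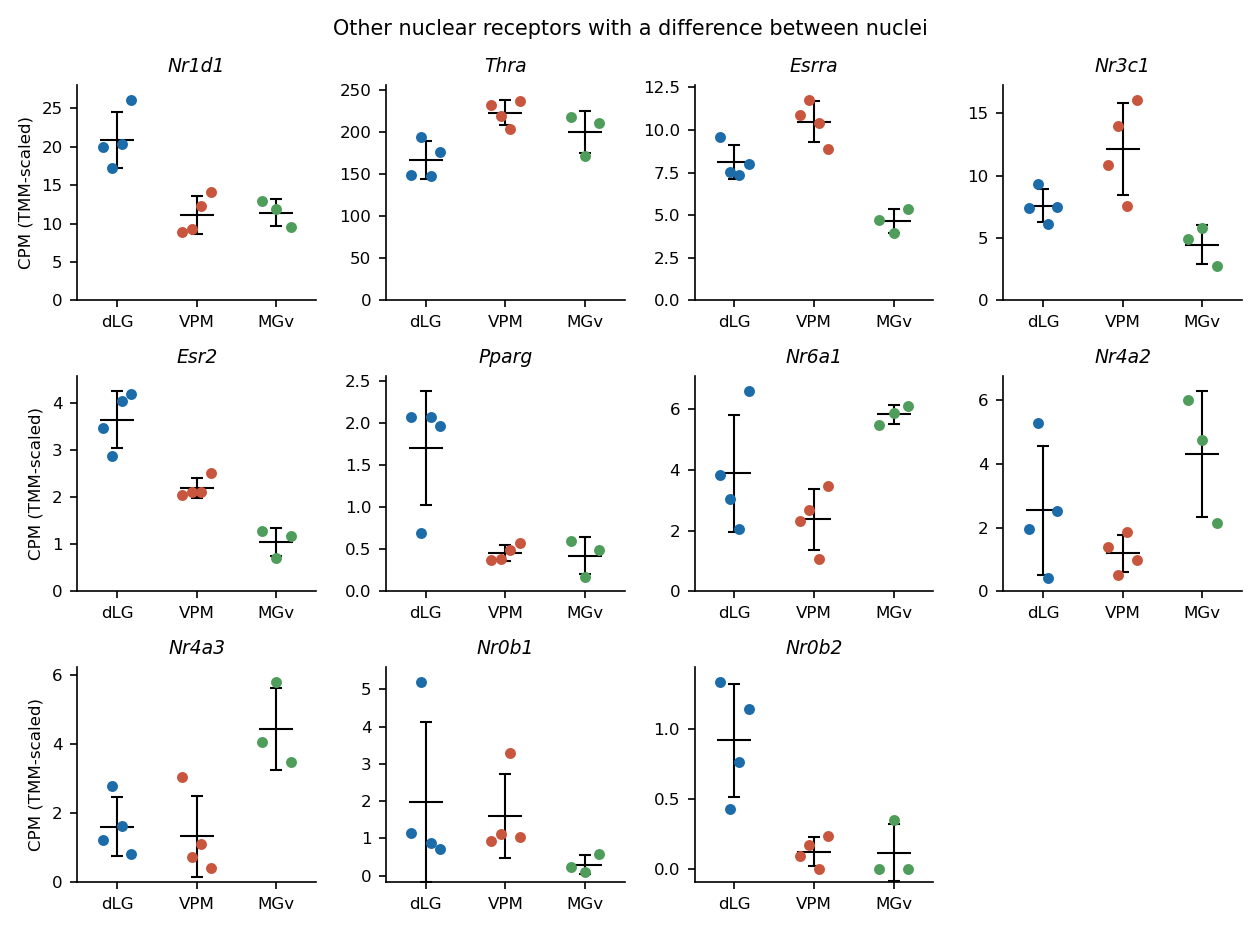
CPM in each library (points) by nucleus for the receptors outside the Ror and COUP-TF groups that differed in at least 1 pair of nuclei, with the mean and standard deviation as bars; axes are linear and differ between panels, and bars can reach below 0 where the spread is wide. Nr1d1 is highest in dLG, Esrra and Nr3c1 are lowest in MGv, and Nr4a3 is highest in MGv at 3.50 to 5.79 CPM.

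Many nuclear receptors bind variants of the half-site AGGTCA. The 250-base RefSeq windows before the transcription starts of 34 members (48 windows, GRCm38.p6) were searched for it on both strands, and 8 windows of 7 members held it (16.7%), against 14.0% of all 32851 windows. Among the receptors that differed between nuclei these were Nr0b1, Nr6a1 and Pparg, and the matches nearest to the start are shown because they belong to genes of the results above, with the match in capitals and up to 12 bases on each side. They lie at chrX:86191637-86191666 (plus strand), chr2:38784543-38784572 (minus strand) and chr6:115361104-115361133 (plus strand).
Nr0b1: tttgagctttcgAGGTCAtggccacacaca
Nr6a1: cggcttgtaaacTGACCTgtgaggatgacg
Pparg: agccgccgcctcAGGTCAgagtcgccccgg
The starts lie 126, 45 and 28 bases downstream of the first base of the match. Another Pparg window, chr6:115362099-115362348 (plus strand), also held a match, 9 bases before its own start, which is not printed. The share of member windows with the letters was near that of all windows, and a match is a description of sequence, not of binding. Windows of Rora, Rorb, Nr2f1 and Nr2f2 did not hold these letters.

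The 13 members that were not tested were Nr2e1, Nr2e3, Thrb, Nr3c2, Esr1, Nr1h4, Nr1i3, Ppara, Vdr, Nr5a1, Nr5a2, Hnf4a and Hnf4g, receptors known chiefly from retina, liver, gut, gonad, adrenal or neural stem cells apart from Thrb, Nr3c2, Esr1 and Vdr. The highest value among them in any library was 1.09 CPM, or 20 counts, and 5 of the 13 had at most 3 counts in every library. Hnf4a had 0 counts in all 11 libraries. In a single library, 0 counts allows up to 3 counts, or 0.129 to 0.292 CPM, by counting error alone, and 0 in all of them allows less. Differences between nuclei in these 13 genes were not tested. Thrb, the most abundant of them, was at 0.426 to 1.09 CPM in dLG, 0.285 to 0.558 in VPM and 0.0972 to 0.351 in MGv. Of 11 superfamily genes outside the 38, 9 were tested, and Rara, at 5.56 CPM in VPM and 3.07 in MGv, passed between these nuclei (log2 fold change 0.86 ± 0.27, adjusted p = 0.0505), but not without MGv replicates 1 (0.137) or 3 (0.118) or VPM replicate 2 (0.145). The sparser Nr1h5 and Rarb, named after their values were seen, also passed in at least 1 pair. Nr1h5 was lower in MGv than in both others, lost against dLG without MGv replicate 2 (0.106), and Rarb was higher in MGv than in dLG, lost without MGv replicate 1 (0.106).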

How the data were processed

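RNA was from neurons sorted from pools of 4 newborn brains (4 dLG, 4 VPM and 3 MGv libraries). The deposited values are raw counts of reads per gene: the authors trimmed the reads, aligned them with STAR 2.7.0d to GRCm38 and counted them in Ensembl genes with featureCounts (Subread 1.6.4). Strand setting and treatment of multiply aligned reads are not given in the sources used here. Groups came from sample titles.

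Symbols, positions and exon lengths came from GENCODE M21, slightly newer than the counting annotation; 54723 of 54752 identifiers had a record. edgeR 4.0.16 (R 4.3.3) fitted 3 group means to the 15907 genes kept by filterByExpr of 33170 with a count, with TMM scaling and a common biological coefficient of variation of 28.2%. Its quasi-likelihood test was two-sided, with Benjamini-Hochberg adjustment over all genes tested and a threshold of 0.1. Standard errors were derived from each log2 fold change and the root of its F statistic, and intervals use the test's own degrees of freedom. TPM was computed from counts and exon length. The fit was tested on simulated data. Ratios were tested by exact permutation. Pairs of libraries of a nucleus differed by more than counting noise, so each was treated as a replicate. That difference does not show that the pools were independent.

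The members, pathway lists and markers were chosen with earlier results of these data known. Every member is accounted for; of each pathway list, up to 3 genes that passed, with the largest absolute log2 fold change and a mean of at least 5 CPM in a nucleus, are named. Alternatives were DESeq2 1.42.0, its size factors, no count filter, a replicate block, the 3 Hspa8-low libraries as a covariate or left out, thinning to the smallest total, each library left out, and a threshold of 0.05. Floors and counts cover counting error only. Protein sequences were not used here. Some results of the pathway lists are not reported here.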

Additional observations from a re-analysis of the deposited data

Results flagged for a closer look

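Within dLG and VPM, the highest or lowest of the 4 libraries of each tested receptor was compared with the rest on the log2 CPM scale by Dixon's ratio, and 4 of 50 sets exceeded its 95% critical value, where chance alone exceeds it in about 1 of 20 sets. Nr2f1 was low in dLG replicate 3, at 192 CPM against 222 to 226 in the other dLG libraries. Nr2f2 was low in VPM replicate 3, at 21.6 CPM against 37.8 to 42.1. Pparg was low in dLG replicate 2, at 0.687 CPM against 1.96 to 2.07. Nr0b1 was high in VPM replicate 3, at 3.29 CPM against 0.927 to 1.13. dLG replicate 2 and VPM replicate 3 are Hspa8-low libraries, and their part in these values was not tested.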

How the results depend on the processing

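Of 25 member differences that passed, 14 passed in each of the 18 refits, and of 50 that did not pass, 38 did not pass in any refit; no difference that passed in the main test or a refit changed direction. Leaving out 1 library gave 5 to 8 receptors for dLG against VPM (8 with all libraries), 7 to 12 for dLG against MGv (9), 3 to 9 for VPM against MGv (8) and 3 to 6 enriched in 1 nucleus (4). VPM against MGv gave 5 receptors with the replicate block and 3 at an adjusted p under 0.05. The labels do not say whether libraries of the same replicate number share brains. Deviations of same-numbered libraries from their group means had a mean correlation of 0.016 over 10 pairs (-0.20 to 0.48). Over 30 other pairs it was -0.005 (-0.31 to 0.27). The highest value was that of dLG replicate 4 with VPM replicate 4, so a mean near 0 cannot settle whether some libraries were paired. The same refits, added for the pathway lists after seeing the data, kept 6 of 15, 11 of 14 and 14 of 22 calls in the 3 contrasts. Their count for dLG against VPM was 23 without the 3 Hspa8-low libraries and 6 to 18 when 1 library was left out; the cause was not tested. In the order by level per length, Pgr and Nr0b1 exchanged ranks with CPM per kilobase. Receptors under about 1 CPM rest on few counts.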
